A study of Mus musculus with 38 samples.

Results

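The response of small-intestinal crypts to 1,25(OH)2D3, the active vitamin D hormone, was set against the response of colon epithelium to the same injection. The measure was a difference of responses: vitamin D minus vehicle in crypts, minus vitamin D minus vehicle in colon, on log2(FPKM + 0.5). FPKM is the number of fragments of a gene scaled by transcript length and library size. A positive difference means that the crypt response lay above the colon response. Genes were taken where 6 or more libraries of either tissue reached an FPKM of 1, which left 11895 of the 21441 genes of the tables. The comparison used 25 of the 38 libraries of the study, 6 of vehicle crypts, 6 of vitamin D crypts, 6 of vehicle colon and 7 of vitamin D colon. It addresses which genes answer the hormone in both parts of the intestine and which in a single part.

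All 4 groups came from wild type C57BL6/J mice that were vitamin D deficient, so no group is vitamin D sufficient. Their age is given as 10 to 13.3 weeks in one label and as 12 to 14 weeks in the treatment protocol, and their sex as pooled male and female. Treated mice received 10 ng of 1,25(OH)2D3 per g of body weight into the peritoneum, control mice 0.1 ml of the propylene glycol and ethanol vehicle, and tissue was taken 4 h later. Crypts were shaken out of the proximal small intestine with 3 mM EDTA and parted from villi on a 70 µm filter, whereas colon epithelium was scraped from the whole colon, so tissue and isolation method cannot be told apart. The labels do not say how many mice stand behind a library, and p-values therefore measure only the spread between these libraries, which may be technical.

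1,25(OH)2D3 binds the vitamin D receptor, the product of Vdr, which pairs with a retinoid X receptor and acts on genes from DNA sites built of a pair of short repeats. In the intestine its known targets include Cyp24a1, whose product inactivates the hormone, and the genes of transcellular calcium absorption: the apical channel gene Trpv6, the cytosolic calcium buffer gene S100g and the basolateral pump gene Atp2b1. The receptor is made along the small intestine and in the colon, and stem cells at the base of the crypts renew the lining of both.

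The libraries held an estimated 13.8 M to 17.5 M reads (median 15.5 M), inferred from the steps of low FPKM values. Some single markers, taken from longer lists, separated the tissues. The colon position gene Hoxb13 reached at most 0.399 FPKM in crypts and 58.4 to 243 in colon. The Paneth cell gene Lyz1 stood at 2830 to 8920 in crypts and 3.36 to 502 in colon. The colonocyte gene Car1 stood at 0 to 6.62 in crypts and 3090 to 13400 in colon. Of the small intestine position genes, Gata4 stood at 47.5 to 93.3 in crypts and 0 to 11.2 in colon. The ileal gene Fabp6, of the same list, ran the other way, with 0 to 1.35 in crypts and 14.7 to 144 in colon. The crypts were from the proximal small intestine, so it is the colon level of Fabp6 that stands out. The summed FPKM of the 6 small intestine position genes, Fabp6 among them, did not separate the tissues. It ran from 179.6 to 218.5 in vehicle crypts and from 139.7 to 279.4 in vehicle colon. With vitamin D it ran from 225.6 to 276.3 in crypts and from 157.9 to 268.7 in colon. Libraries of a group differed in cell makeup. The summed FPKM of 20 absorptive enterocyte markers ran from 7969 to 60080 in vehicle crypts, highest in replicates 5 and 6, and from 9547 to 35650 in vitamin D crypts. The 10 markers of stroma, muscle and endothelium summed to 3.16 to 4.86 in crypts, 23.0 to 383 in vehicle colon and 25.1 to 7522 in vitamin D colon, highest in replicates 2 and 1. Paneth cell markers reached 2725 in vehicle colon replicate 5. In bulk RNA, fewer cells of a type and less RNA per cell cannot be told apart. The part of these differences in the results below was not tested beyond the values given without these libraries.

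**Figure D1:**
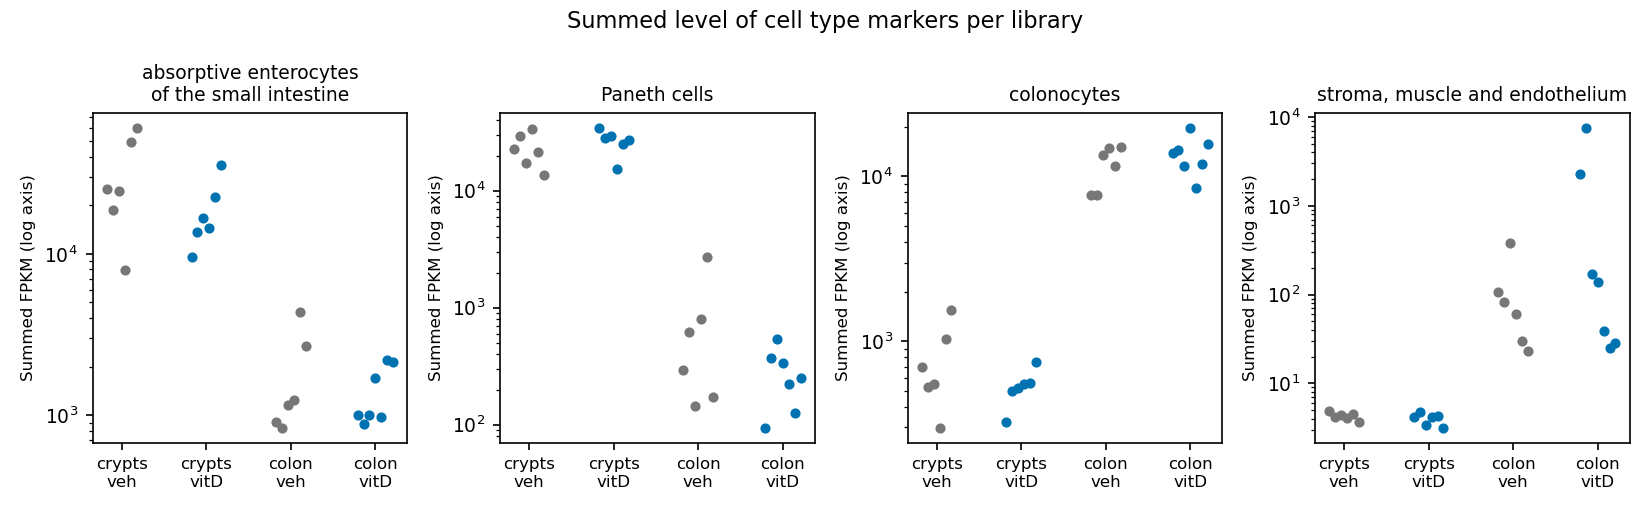
Summed FPKM (log axis) of 4 lists of cell type markers in each of the 25 libraries, by tissue and treatment, with vehicle in grey and vitamin D in blue. Enterocyte markers are highest in 2 vehicle crypt libraries, and stromal and muscle markers rise to 7522 in a vitamin D colon library while all crypt libraries stay below 5.

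Most genes were there in both tissues. Of the 11895 genes, 10378 (87.2%) counted as present in both, which required 6 libraries of the tissue to reach 1 FPKM. Another 355 were present in crypts alone, of which 89 were absent in colon (under 1 FPKM in every library, 0.829% of the genes present in crypts) and 266 were low there. The other 1162 were present in colon alone, with 724 absent (6.27% of the genes present in colon) and 438 low in crypts. A gene was called where limma's test gave a Benjamini-Hochberg adjusted p under 0.05 over all genes of the comparison.

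In its own table, the crypt response was called for 157 genes, 1.46% of 10733, with 121 higher (1.13%) and 36 lower (0.335%). The colon response was called for 95 genes, 0.823% of 11540, with 88 higher (0.763%) and 7 lower (0.0607%). Replicate numbers paired the crypt libraries, and with the number as a block the crypt count was 444 (249 higher, 195 lower). The crypt count was also 1065 without vehicle crypt replicate 4, and 103 without vehicle crypt replicates 5 and 6. The colon count was 58 without vitamin D colon replicates 1 and 2. Of the rises, 9 in crypts and 5 in colon passed the filter on low values only through the vitamin D libraries, and of the falls, 3 in crypts and 1 in colon only through the vehicle libraries. Such genes had to differ, so their calls in that tissue are a description only. Of the genes named here these were Cyp24a1, Cnnm1, Trim47, Fam20c and Vav3 in crypts and Trim47 and Cdyl2 in colon.

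The direct comparison of the responses called 10 genes, 0.0841% of those tested, with the crypt response higher for 7 (0.0588%) and lower for 3 (0.0252%). Of the 10, 7 were present in both tissues (0.0675% of such genes). At an unadjusted p under 0.05 there were 563. The median standard error of a difference was 0.215 on the log2 scale. Far fewer genes thus passed for the difference than for either response, and most genes called in a single tissue were not called for the difference. With the title replicate number as a block within each tissue the count was 28 (17 and 11), 8 of them among the 10. That block takes out vitamin D colon replicate 7, which has no vehicle partner of its number. With the column number as a block within each tissue the count was 10, 5 of them among the 10. With the title number as a block within each treatment it was 13, 4 of them among the 10. Leaving out a single library gave 1 to 18. The count was 1 without vehicle colon replicate 4 or vitamin D crypt replicate 3, and 4 without vehicle crypt replicate 1 or vitamin D crypt replicate 2 or 5. It was 5 without vehicle colon replicate 2, vehicle crypt replicate 2, 3 or 5, or vitamin D colon replicate 4, and 6 without vehicle colon replicate 5 or vehicle crypt replicate 6. It rose to 17 without vitamin D crypt replicate 6 and to 18 without vitamin D colon replicate 7. Without vehicle crypt replicates 5 and 6, highest in enterocyte markers, 2 genes were called, of which Cnnm1 was 1 of the 10.

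Genes called in both tissues were all rises. They numbered 33, which is 21% of the crypt calls and 34.7% of the colon calls, and no gene was called in opposite directions. Of the 121 genes that rose in crypts, 112 were present in colon and 100 of those had a colon response above 0, with a median of 0.49 beside 0.87 in crypts. Of the 88 that rose in colon, 74 were present in crypts and 73 had a crypt response above 0, with a median of 0.65 beside 1.00 in colon. Over all 10378 genes present in both, 5089 colon responses and 4945 crypt responses were above 0. Across those genes the responses had a Pearson r of 0.49 and a Spearman rank correlation of 0.39, as a description only, since genes of a library share its depth and cell makeup.

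**Figure D2:**
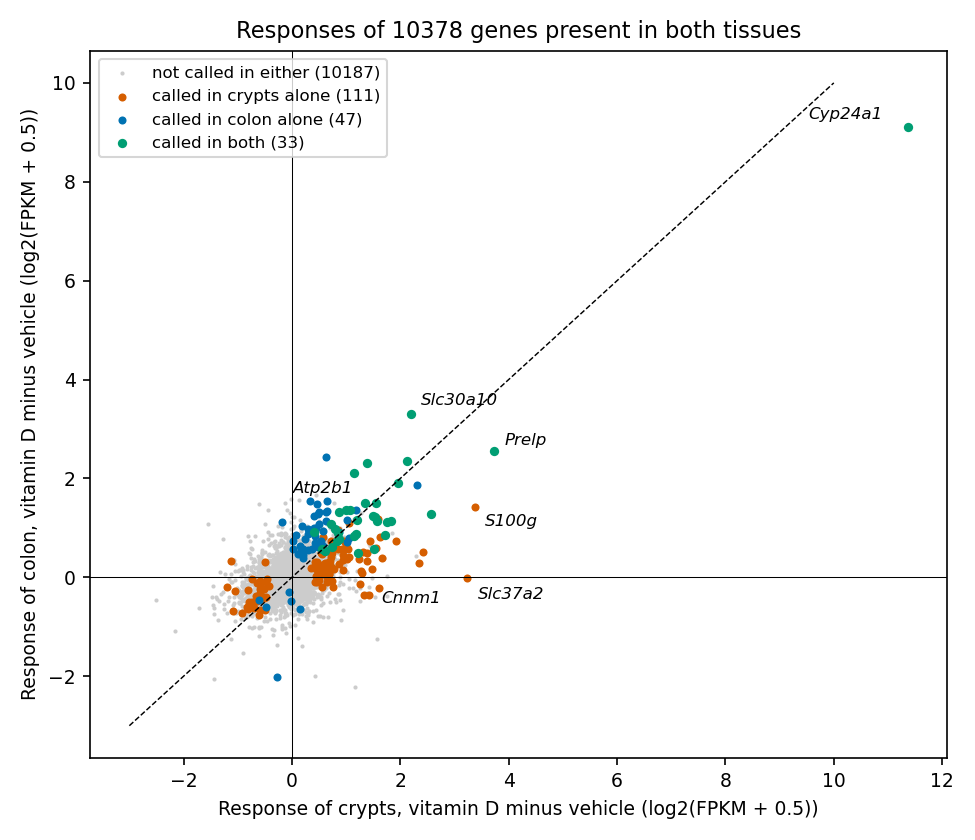
Vitamin D response of each gene present in both tissues, crypts on the x axis and colon on the y axis, both as vitamin D minus vehicle on log2(FPKM + 0.5); colours mark genes called in crypts alone, in colon alone, in both or in neither, and the dashed line marks equal responses. The 33 genes called in both lie in the upper right, and Slc37a2 lies far to the right at a colon response near 0.

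Cyp24a1, the hydroxylase that inactivates the hormone, rose most of the named genes in both. In crypts it ran from 0.184 to 7.35 FPKM (median 0.462) with vehicle and from 2520 to 4490 (median 3670) with vitamin D. Colon libraries ran from 0.114 to 64.7 (median 2.87) and from 403 to 3270 (median 2890). Treated and control libraries did not overlap in either tissue (every treated library was higher for 1.23% of genes in crypts and 0.754% in colon), though vehicle colon replicate 6 was the highest control and vitamin D colon replicate 7 the lowest treated library. The log2 response was 11.37 ± 0.48 (SE) in crypts, as a description, and 9.10 ± 0.88 in colon (limma adjusted p = 2.74e-04). The difference of 2.27 ± 1.08 did not pass (adjusted p = 0.99), and its 95% interval ran from 0.03 to 4.50. Vdr itself was high in all groups, at 195 ± 38.2 FPKM (SD, n = 6) and 248 ± 55.2 (n = 6) in crypts and 179 ± 32.0 (n = 6) and 166 ± 29.7 (n = 7) in colon, with neither response nor the difference called (adjusted p = 0.381, 0.909 and 0.99). Cyp27b1, which makes the hormone, stayed under 0.4 FPKM in every library and was not tested.

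Atp2b1, the basolateral calcium pump, gave the closest match of sizes among the calcium genes. It ran from 19.5 to 45.4 FPKM (median 29.5) in vehicle crypts and from 69.0 to 101 (median 90.8) in vitamin D crypts. Colon values ran from 43.5 to 86.2 (median 46.8) and from 121 to 178 (median 152). Every treated library stood above every control library in both tissues. The response was 1.56 ± 0.17 in crypts and 1.50 ± 0.16 in colon, and the difference 0.06 ± 0.24, with a 95% interval from -0.43 to 0.56. A gap of 2-fold between the tissues thus lay outside the interval for this gene.

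The manganese exporter gene Slc30a10 rose from 14.9 ± 7.68 to 62.0 ± 7.57 FPKM in crypts and from 11.5 ± 11.2 to 86.3 ± 31.2 in colon (responses 2.19 ± 0.32 and 3.31 ± 0.48). Its difference was -1.12 ± 0.61 (adjusted p = 0.99). Prelp, which codes for a leucine-rich proteoglycan of the matrix, rose from 9.18 ± 3.72 to 126 ± 41.1 in crypts and from 5.83 ± 3.57 to 38.5 ± 19.0 in colon (3.73 ± 0.30 and 2.56 ± 0.43); its colon call was lost without vitamin D colon replicates 1 and 2 (adjusted p = 0.0632). The ubiquitin ligase gene Trim47 was near the floor with vehicle, at 0.177 and 0.690 FPKM, and rose to 2.32 and 4.37 (1.96 ± 0.27 and 1.91 ± 0.40); its colon call was kept in 12 of 28 alternatives. The phosphodiesterase gene Gdpd5 rose by 1.39 ± 0.15 in crypts and 2.31 ± 0.33 in colon. Ttc39b, a tetratricopeptide repeat gene, rose by 1.35 ± 0.25 and 1.50 ± 0.16, and its crypt call was lost without vehicle crypt replicates 5 and 6 (adjusted p = 0.0866). Mctp2, a C2 domain gene, rose by 1.50 ± 0.22 and 1.23 ± 0.14. None of these 6 genes was called for the difference (adjusted p = 0.99 or above).

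Further genes of the 33, chosen after their values were seen, included a metal importer and epithelial genes. Slc39a8, the zinc and manganese importer, rose by 1.56 ± 0.29 in crypts and 1.15 ± 0.18 in colon, and its crypt call was lost without vehicle crypt replicates 5 and 6 (adjusted p = 0.0852). The keratin gene Krt7 rose from 47.4 to 139 FPKM in crypts and from 96.1 to 227 in colon. The nuclear receptor gene Ppard rose from 154 to 274 and from 128 to 216, with a difference of 0.10 ± 0.12. Lrrc26, an auxiliary subunit of potassium channels, rose by 1.83 ± 0.13 and 1.13 ± 0.09 (difference 0.69 ± 0.16, adjusted p = 0.12). Ptprj, a receptor phosphatase gene, rose by 1.71 ± 0.17 and 0.86 ± 0.16 (adjusted p of the difference 0.327), the colon call being lost without vitamin D colon replicates 1 and 2 (0.0537).

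Cnnm1, a member of the divalent metal transport mediator family, had the smallest p for the difference. It ran from 0.575 to 1.15 FPKM (median 0.916) in vehicle crypts and from 2.53 to 3.82 (median 3.08) in vitamin D crypts. In colon it ran from 1.25 to 1.99 (median 1.48) with vehicle and from 0.914 to 1.57 (median 0.971) with vitamin D. The crypt groups did not overlap, while in colon the treated libraries sat mostly below the controls and replicate 7 lay among them. The crypt response was 1.42 ± 0.13, as a description since the gene passed the filter there only through the vitamin D libraries. The colon response was -0.35 ± 0.14 (adjusted p = 0.473) and the difference 1.77 ± 0.18 (adjusted p = 7.48e-06). It was called for the difference in all 45 alternatives run, with values from 1.42 to 2.33.

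Slc30a1, the zinc exporter of the plasma membrane, rose in crypts from 6.67 ± 0.927 to 18.4 ± 3.27 FPKM and stood at 11.4 ± 2.62 and 14.3 ± 2.44 in colon. All treated crypt libraries, at 14.3 to 22.0, lay above all vehicle crypt libraries, at 5.45 to 7.93, whereas the colon groups overlapped. The responses were 1.39 ± 0.13 and 0.32 ± 0.15, and the difference 1.06 ± 0.20 (adjusted p = 0.0241). It was the sole member called for the difference among the 369 tested genes of the 32 gene lists. Rnf149, a membrane ubiquitin ligase gene, went from 29.6 ± 3.57 to 70.5 ± 9.70 FPKM in crypts and from 44.1 ± 2.26 to 57.7 ± 8.56 in colon (difference 0.86 ± 0.15, adjusted p = 0.022). Its colon response was 0.37 ± 0.10 (adjusted p = 0.117), though the test in the authors' deposited comparison called a colon rise of 0.39 (adjusted p = 0.00944).

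Pgap1, which trims GPI anchors, rose in crypts from 4.61 ± 0.584 to 11.9 ± 2.82 FPKM and stood at 5.01 ± 1.56 and 4.52 ± 1.22 in colon (difference 1.38 ± 0.26, adjusted p = 0.0241). Pip5k1b, a phosphoinositide kinase gene, rose in crypts by 0.47 ± 0.06 and stood at a response of -0.10 ± 0.09 in colon (difference 0.57 ± 0.11, adjusted p = 0.0241). 5031439G07Rik rose in both tissues, by 1.21 ± 0.08 in crypts and 0.48 ± 0.10 in colon, and was the sole gene called in both whose difference was called (0.73 ± 0.13, adjusted p = 0.022). Its colon call was kept in 12 of 28 alternatives and lost without vitamin D colon replicates 1 and 2 (adjusted p = 0.116). Wfdc16, of the WAP protease inhibitor family, rose in crypts from 1.65 ± 0.301 to 18.2 ± 6.07 FPKM. It was low in colon, at 0.223 ± 0.140 and 1.20 ± 0.842, and its difference was 1.96 ± 0.39 (adjusted p = 0.0431). The Wfdc16 difference was called in 19 of 44 alternatives. With the fold changes of the authors' deposited table it was 1.05 (adjusted p = 1), and the colon fold change of Wfdc16 in that table was 2.41 on the log2 scale (adjusted p = 0.0176).

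In the other direction, Srgap3, which codes for a GTPase-activating protein, rose in colon from 2.04 to 3.09 FPKM (median 2.27) to 4.69 to 8.86 (median 4.95). It was absent in crypts, with a highest library of 0.351, and the difference was -1.05 ± 0.19 (adjusted p = 0.0241). A830010M20Rik rose in colon from 3.17 ± 0.692 to 8.30 ± 2.90 FPKM and was absent in crypts, at 0.698 ± 0.157 and 0.603 ± 0.0399 (difference -1.33 ± 0.23, adjusted p = 0.022). For Srgap3 the difference therefore compares a response with a tissue that hardly has the transcript. A830010M20Rik counts as absent by the threshold of 1 FPKM but was detected in every crypt library. It ran from 0.522 to 0.94 in vehicle crypts and from 0.531 to 0.643 in vitamin D crypts, a response of -0.11. Cnksr3, a scaffold protein gene, was present in both: it fell in crypts from 6.11 ± 0.931 to 4.16 ± 0.323 FPKM and stood at 14.9 ± 1.76 and 18.9 ± 3.53 in colon (difference -0.81 ± 0.16, adjusted p = 0.0431). The crypt fall of Cnksr3 was called in 13 of 26 alternatives and lost without vehicle crypt replicates 5 and 6 (adjusted p = 0.178).

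Leaving out each of the 25 libraries in turn, Cnnm1 was called every time, Rnf149, 5031439G07Rik and A830010M20Rik 23 times, Slc30a1 16, Srgap3 15, Pgap1 and Pip5k1b 14, Cnksr3 7 and Wfdc16 6 times. The highest adjusted p of these repeats was 0.105, for Wfdc16. Without vehicle crypt replicates 5 and 6 the other 9 differences kept their sign, at adjusted p from 0.0773 to 0.153. In the libraries of replicates 1 to 4 alone, Cnnm1 and Pgap1 were called, with adjusted p of 3.79e-04 and 0.00639. With the title number as a block, Srgap3 and Cnksr3 were at 0.0532. Genes close to the threshold that did not pass were Cbr2 (adjusted p = 0.0608), Mapre2 (0.064) and Soat1 (0.0648). Cdyl2 lay near it too, but entered the comparison only through the vitamin D colon libraries, so its difference is a description only.

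**Figure D3:**
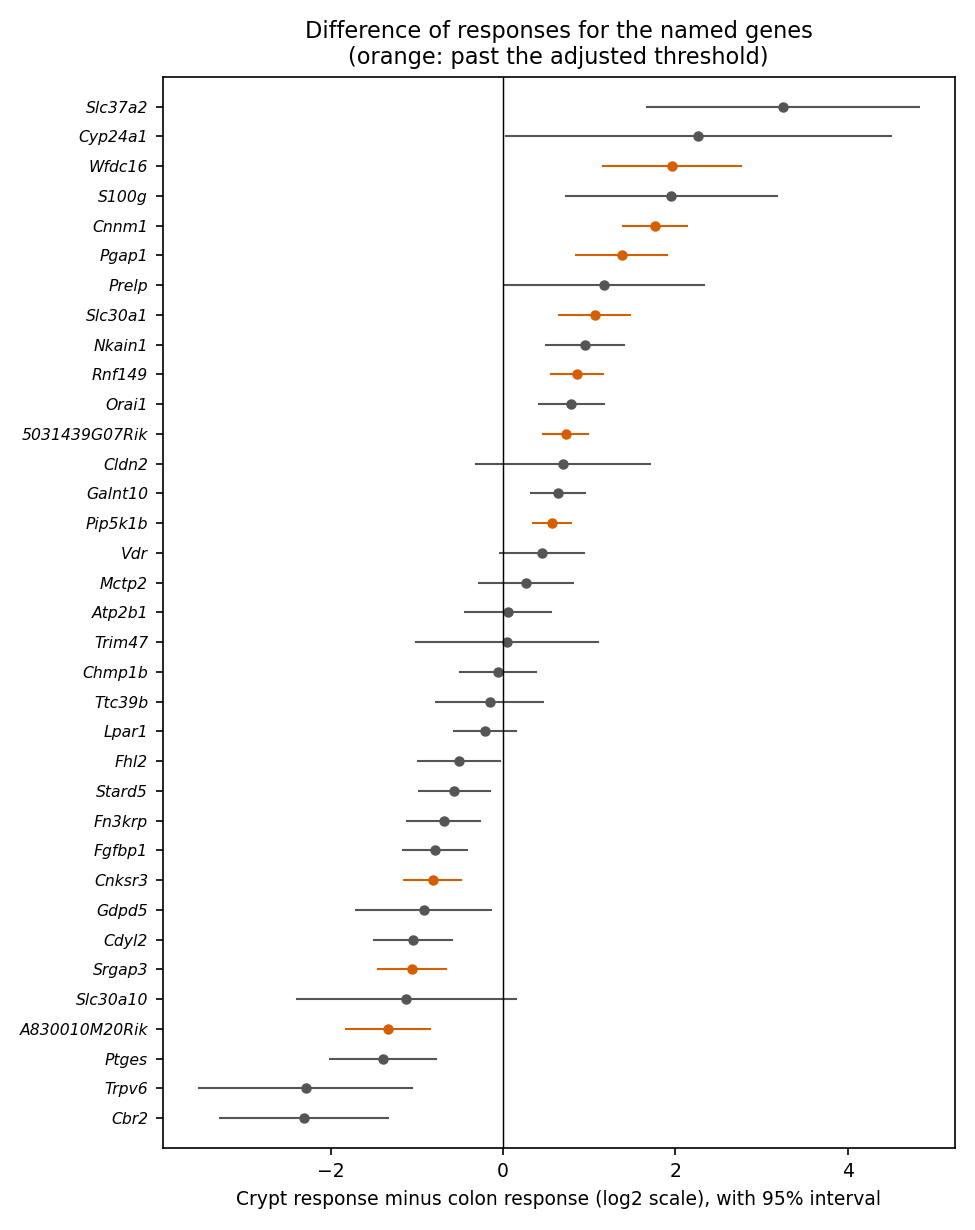
Crypt response minus colon response (log2 scale) with its 95% interval from limma for the named genes, ordered by size; orange marks the 10 genes past the adjusted threshold. Wide intervals mark genes with a large spread between libraries, such as Slc37a2 and Cyp24a1, while Cnnm1 has a narrow interval far from 0.

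These 3 promoters are shown because their genes stand for the patterns found: Cnnm1 rose in crypts alone, Srgap3 in colon where crypts hardly have it, and Prelp in both. Each is the 250 bases before the annotated start, from RefSeq on GRCm38.p6, written 5′ to 3′ on the strand of the gene. Capitals mark receptor half-sites, searched on both strands in 4 spellings, namely AGGTCA and then AGTTCA and then GGGTCA and lastly GGTTCA. Cyp24a1 was not matched in the promoter table.
Cnnm1 (chr19:43440163-43440412, plus strand): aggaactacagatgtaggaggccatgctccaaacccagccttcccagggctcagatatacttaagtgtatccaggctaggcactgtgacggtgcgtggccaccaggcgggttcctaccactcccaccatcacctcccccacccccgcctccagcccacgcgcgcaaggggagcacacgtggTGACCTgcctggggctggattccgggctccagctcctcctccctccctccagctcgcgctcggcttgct
Srgap3 (chr6:112947267-112947516, minus strand): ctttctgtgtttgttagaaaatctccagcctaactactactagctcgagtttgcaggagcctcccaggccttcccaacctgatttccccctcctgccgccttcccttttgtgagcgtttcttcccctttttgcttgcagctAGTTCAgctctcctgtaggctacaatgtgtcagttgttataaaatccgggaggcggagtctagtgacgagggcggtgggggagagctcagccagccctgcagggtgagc
Prelp (chr1:133921402-133921651, minus strand): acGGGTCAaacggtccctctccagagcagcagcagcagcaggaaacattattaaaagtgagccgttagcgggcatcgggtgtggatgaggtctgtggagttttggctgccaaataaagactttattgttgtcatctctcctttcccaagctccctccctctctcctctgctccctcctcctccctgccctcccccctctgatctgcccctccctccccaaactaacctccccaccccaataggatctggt
Each window held 1 half-site, beginning 69 bases before the start in Cnnm1, 109 in Srgap3 and 248 in Prelp. A half-site alone is common: 38.6% of all 32851 promoters of that length held at least 1, and 34.3% of the 10548 promoters matched to genes tested here. The share was 22.9% of 35 promoters for genes that rose in both tissues, 36% of 50 for genes that rose in crypts and were flat in colon, and 21.4% of 28 for genes that rose in colon and were flat in crypts. A direct repeat of 2 such half-sites with 3 bases between them stood in 13 promoters of all (0.0396%). None of the 151 promoters matched to genes that rose in either tissue held it, which says only that these letters are not in that window.

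Most genes that rose in crypts were present in colon. Of the 121, 33 rose in colon (27.3%, beside 0.713% of all genes present in both), 57 were flat (47.1%), 22 were unsettled, 7 were low and 2 were absent. These shares are of all 121, of which 112 were present in colon, whereas the shares beside them cover only genes present in both. Flat means not called and with a 95% interval of the response inside a 2-fold change either way, which held in colon for 91.5% of all genes present in both. Unsettled means neither called nor flat. Flat is not the same as unmoved: of the 57, 47 had a colon response above 0 and 20 had an unadjusted p under 0.05 in colon. Their median response was 0.68 in crypts and 0.22 in colon. The difference was called for 5 of the 57 and reached an unadjusted p under 0.05 for 38. With the replicate block 151 genes rose in crypts and were flat in colon, and 36 did so without vehicle crypt replicates 5 and 6.

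**Figure D4:**
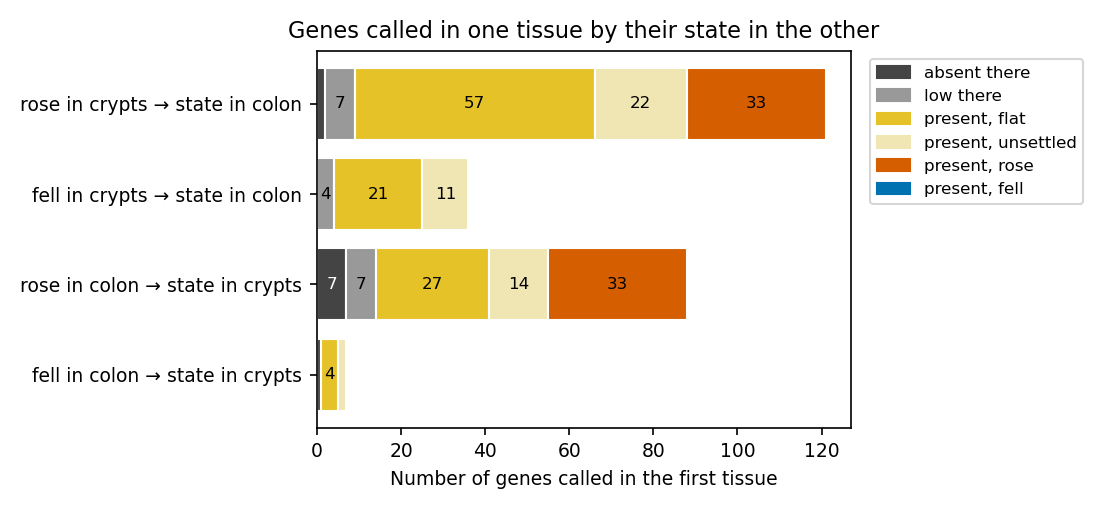
Number of genes called in a tissue (rows, by direction) divided by their state in the other tissue: absent, low, present and flat, present and unsettled, or present and called. Absent and low genes make up 9 of the 121 crypt rises and 14 of the 88 colon rises, fewer than the flat genes in each.

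By smallest crypt p these were led by Orai1, Rnf149, Slc30a1, Cnnm1, Nkain1 and Galnt10. Orai1, the pore of the store-operated calcium channel, ran from 14.9 to 19.8 FPKM (median 18.5) in vehicle crypts and from 34.5 to 54.5 (median 45.2) in vitamin D crypts. Colon libraries ran from 18.5 to 31.7 (median 24.4) and from 25.2 to 40.8 (median 35.9). The crypt groups lay apart and the colon groups overlapped. The responses were 1.30 ± 0.11 and 0.51 ± 0.14 (colon adjusted p = 0.137), and the difference of 0.79 ± 0.18 did not pass (0.123). Nkain1, whose product interacts with the sodium pump, had responses of 1.55 ± 0.15 and 0.59 ± 0.15. Galnt10, a glycosyltransferase gene, had 1.01 ± 0.12 and 0.37 ± 0.10. With the replicate block these 3 genes were called in colon as well, at adjusted p of 0.0357, 0.0166 and 0.0467. Replicate numbers did not pair the colon libraries, and the block takes out vitamin D colon replicate 7, which has no vehicle partner. By the test in the authors' deposited comparison they also rose in colon, at adjusted p of 0.0305, 0.0083 and 0.0114. Rnf149 did so too (0.00944), whereas Slc30a1 (0.423) and Cnnm1 (0.143) were not called in colon there.

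Lipid and signalling genes were also in this class, chosen after their values were seen. Soat1, which esterifies cholesterol, rose in crypts from 11.1 ± 1.46 to 37.8 ± 12.7 FPKM and stood at 13.6 ± 2.74 and 18.1 ± 4.72 in colon (difference 1.27 ± 0.27). Pkp1, of the desmosome, rose in crypts by 1.29 ± 0.24 and stood at 0.09 ± 0.17 in colon. Of the 57 genes, 14 had a higher vehicle mean in colon than vitamin D mean in crypts, beside 5101 of all 10378 genes present in both. The next 3 genes are among those 14. The nuclear receptor gene Pparg went from 2.09 to 4.60 FPKM in crypts and stood at 11.6 and 12.9 in colon. Inpp5j, a phosphoinositide phosphatase gene, went from 8.41 to 22.8 in crypts and stood at 58.0 and 81.6 in colon. The surface protein gene Cd177 went from 1.56 to 5.77 and stood at 78.4 and 63.3. The crypt calls of Pkp1, Pparg and Cd177 were lost without vehicle crypt replicates 5 and 6 (adjusted p = 0.0753, 0.0597 and 0.13). Of the 57 genes, 34 (59.6%) had a higher vehicle mean in colon than in crypts, beside 47.9% of all genes present in both; levels across the tissues come from separately normalised tables.

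The 88 genes that rose in colon fell into the same states in crypts. Of these, 33 rose in crypts (37.5%, beside 1.08% of all genes present in both), 27 were flat (30.7%, beside 89.9%), 14 were unsettled, 7 were low and 7 were absent. Here too the shares are of all 88, of which 74 were present in crypts. The 27 had a median response of 0.74 in colon and 0.29 in crypts, 26 of them above 0 in crypts and 13 with an unadjusted crypt p under 0.05. None of the 27 was called for the difference, and 16 reached an unadjusted p under 0.05. Without vitamin D colon replicates 1 and 2, 15 genes rose in colon and were flat in crypts, and 7 rose in colon and were low or absent in crypts.

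Fgfbp1, which releases fibroblast growth factors from the matrix, had the largest difference among the 6 named genes of this kind. It ran from 14.8 to 26.5 FPKM (median 18.1) and from 16.0 to 24.4 (median 19.7) in vehicle and vitamin D crypts. In colon it ran from 56.5 to 91.7 (median 74.1) and from 116 to 152 (median 128). The crypt groups covered the same range, while all treated colon libraries stood above the controls. The responses were 0.08 ± 0.14 and 0.86 ± 0.11 and the difference -0.79 ± 0.18 (adjusted p = 0.123). Stard5, a lipid transfer gene, had a colon response of 1.00 ± 0.12 and a crypt response of 0.44 ± 0.15. Fhl2, a LIM domain gene, had 1.14 ± 0.16 and 0.63 ± 0.16, and Fn3krp, a kinase that repairs glycated proteins, 0.98 ± 0.14 and 0.29 ± 0.15. The crypt rise of Fhl2 was called in 9 of 26 alternatives. Among these were the replicate block (limma adjusted p = 0.0332) and the test in the authors' deposited comparison (adjusted p = 0.0115).

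For the remaining 2 of this rule the tissues lay close. Lpar1, a receptor for lysophosphatidic acid, had 0.74 ± 0.08 in colon and 0.54 ± 0.16 in crypts (difference -0.21 ± 0.17). Chmp1b, of the ESCRT-III complex, had 0.62 ± 0.09 and 0.57 ± 0.19 (difference -0.05 ± 0.21). Both were called in colon and flat in crypts although the responses were of similar size, and with the replicate block Lpar1 was called in crypts too (adjusted p = 0.0226). Larger gaps, chosen after their values were seen, were those of Dcxr, a carbonyl reductase gene of sugar metabolism, and Rac3, a small GTPase gene. Dcxr stood at 8.94 and 7.70 FPKM in crypts and rose from 22.4 to 50.6 in colon (difference -1.30 ± 0.32, adjusted p = 0.175). Rac3 stood at 1.47 and 1.98 in crypts and rose from 4.78 to 16.3 in colon (-1.21 ± 0.33, 0.275), a call lost without vitamin D colon replicates 1 and 2 (0.061).

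Further genes rose in colon and were absent in crypts. Cbr2, a carbonyl reductase, ran from 8.77 to 21.4 FPKM (median 16.3) in vehicle colon and from 18.9 to 174 (median 90.6) in vitamin D colon. In crypts its highest library was 0.224, and 3 of 6 vehicle libraries were at 0. Among treated colon libraries, replicate 7 alone overlapped the controls. The colon response was 2.42 ± 0.42 (adjusted p = 0.0103) and the difference -2.30 ± 0.47 (0.0608). The Cbr2 difference was called in 10 of 44 alternatives, and with the authors' deposited fold changes it was -1.68 and not called. Ptges, which makes prostaglandin E2, rose in colon from 1.23 ± 0.296 to 4.96 ± 2.17 and stood at 0.306 and 0.428 in crypts (-1.39 ± 0.30, 0.0803). Cdyl2, a chromodomain gene, rose in colon from 0.640 to 2.11 and stood at 0.181 and 0.242 in crypts. The envelope protein gene Scel, chosen after its values were seen, rose in colon from 1.55 to 4.16 and reached at most 0.0433 in crypts. The colon call of Scel was kept in 12 of 28 alternatives. Without vitamin D colon replicates 1 and 2 the colon calls of Scel and Cbr2 were lost (adjusted p = 0.147 and 0.0632).

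Low is not absent, and a low gene can respond. Rhov, a small GTPase gene chosen after its values were seen, rose in colon from 1.22 ± 0.491 to 5.67 ± 1.62 FPKM (1.84 ± 0.21). In crypts it stood at 0.126 to 0.537 with vehicle and 0.434 to 1.78 with vitamin D, a response of 1.18 that was not tested in the crypt table. The 14 colon risers that were low or absent in crypts had a median colon response of 1.46 and a median crypt response of 0.41, with 12 above 0 in crypts.

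Of the 9 crypt risers that were low or absent in colon, the median response was 1.68 in crypts and 0.39 in colon. Besides Wfdc16 these were chosen after their values were seen. Slc14a1, a urea transporter gene, rose in crypts from 7.28 ± 3.13 to 25.5 ± 10.7 FPKM and was absent in colon, at 0.192 and 0.194. The alkaline phosphatase gene Alppl2 rose from 1.75 to 3.79 and was absent in colon, at 0.399 and 0.307. The growth factor gene Pdgfa rose in crypts from 0.669 to 4.75 and was low in colon, where most libraries were at 0. The difference of Pdgfa was 1.69 ± 0.75 (limma adjusted p = 0.99), and 0.35 with the authors' deposited fold changes. Those were 2.83 in crypts, not called by the authors' test (adjusted p = 0.169), and 2.48 in colon. Fam20c, a kinase of secreted proteins, rose in crypts from 0.360 to 2.45 and stood at 0.338 and 0.696 in colon. Fam20c entered the comparison only through the vitamin D crypt libraries, so its difference is a description only. It was 1.35 ± 0.33, and 1.67 without vitamin D colon replicates 1 and 2. The crypt calls of Slc14a1 and Alppl2 were lost without vehicle crypt replicates 5 and 6 (0.117 and 0.0847).

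Of the 36 genes that fell in crypts, 21 were flat in colon (58.3% of all 36, beside 91.5% of all genes present in both), 11 unsettled and 4 low. None fell in colon, where 0.0607% of all genes fell, so the count of 0 is near the share of all genes. Among the 32 present in colon, 30 had a colon response under 0, with a median of -0.38 beside -0.63 in crypts. Over all 10378 genes present in both, 5289 colon responses were under 0. These counts are a description only, since genes of a library share its depth and cell makeup. Vav3, a guanine nucleotide exchange factor gene, ran from 1.81 to 3.52 FPKM (median 2.12) in vehicle crypts and from 0.480 to 0.956 (median 0.819) in vitamin D crypts. Those groups did not overlap (every treated library was lower for 0.522% of genes in crypts and 0.113% in colon), but Vav3 passed the filter in crypts only through the vehicle libraries. In colon it ran from 3.23 to 9.61 and from 3.32 to 8.80, over the same range (responses -1.20 ± 0.17 and -0.19 ± 0.26, difference -1.01 ± 0.33, adjusted p = 0.567). Lrat, which stores retinol as esters, fell in crypts by 1.08 ± 0.18 and stood at -0.68 ± 0.31 in colon. Sphk1, a sphingosine kinase gene, fell in crypts from 11.4 to 6.40 and was low in colon. These 3 were chosen after their values were seen, and the calls of Lrat and Sphk1 were lost without vehicle crypt replicates 5 and 6 (0.0532 and 0.0749). With the block 143 genes fell in crypts and were flat in colon, and without vehicle crypt replicates 5 and 6 there were 9.

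Of the 7 genes that fell in colon, 4 were flat, 2 unsettled and 1 absent in crypts. Hif1a, the oxygen-regulated transcription factor, fell in colon from 26.6 ± 3.79 to 17.0 ± 3.39 FPKM (-0.64 ± 0.13) and stood at 13.6 and 14.6 in crypts (0.14 ± 0.16, difference 0.79 ± 0.21, adjusted p = 0.261). The transcription factor gene Sox13 fell in colon by 0.61 ± 0.10 and stood at -0.48 ± 0.15 in crypts, with a difference of 0.12 ± 0.18. Both were chosen after their values were seen, and the colon call of Hif1a was kept in 14 of 28 alternatives.

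The calcium genes besides Atp2b1 did not pass for the difference either. Trpv6, the apical calcium channel, ran from 0.427 to 5.29 FPKM (median 1.54) in vehicle colon and from 12.5 to 53.2 (median 21.7) in vitamin D colon. In crypts it was low, from 0.0702 to 0.809 (median 0.142) and from 0.136 to 2.51 (median 1.35). The colon groups lay apart, and in crypts replicate 6 of the treated libraries fell among the controls. The colon response was 3.53 ± 0.46 (adjusted p = 0.00142), the crypt response 1.25, and the difference -2.29 ± 0.60 (unadjusted p = 8.45e-04, adjusted p = 0.258). With the fold changes of the authors' deposited table the Trpv6 difference was -1.14, the crypt value there being 2.48 on the log2 scale (adjusted p = 0.00886). The colon call was missed in the libraries of replicates 1 to 4 alone (0.0515).

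S100g, the calcium buffer, ran from 57.1 to 588 FPKM (median 266) in vehicle crypts and from 2070 to 3190 (median 2430) in vitamin D crypts. In colon it ran from 115 to 470 (median 148) and from 284 to 852 (median 562). The crypt groups lay far apart and the colon groups overlapped. Its responses were 3.38 ± 0.43 (adjusted p = 9.11e-04) and 1.42 ± 0.37 (0.131), with a difference of 1.95 ± 0.59 (0.456). In the libraries of replicates 1 to 4 alone the colon response was called (0.0162). Cldn2, a paracellular pore for cations, rose in crypts from 118 ± 25.5 to 336 ± 130 FPKM (1.43 ± 0.25) and stood at 102 ± 68.9 and 163 ± 91.2 in colon (0.73 ± 0.38, difference 0.70 ± 0.49, adjusted p = 0.99). The crypt call of Cldn2 was just lost without vehicle crypt replicates 5 and 6 (0.0508).

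Slc37a2, a sugar-phosphate carrier gene, had the largest difference among the named genes, 3.25 ± 0.76 (adjusted p = 0.136). It ran from 2.38 to 13.6 FPKM (median 8.35) in vehicle crypts and from 54.2 to 93.0 (median 72.7) in vitamin D crypts. In colon it ran from 12.0 to 120 (median 50.2) and from 15.1 to 157 (median 40.3). The crypt groups did not overlap, and the colon groups each spread about as widely as the other, with vitamin D crypts inside their range. The colon response was -0.02 ± 0.62, an interval too wide to be called flat, so Slc37a2 was unsettled in colon. It was called for the difference in 5 of 45 alternatives.

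**Figure D5:**
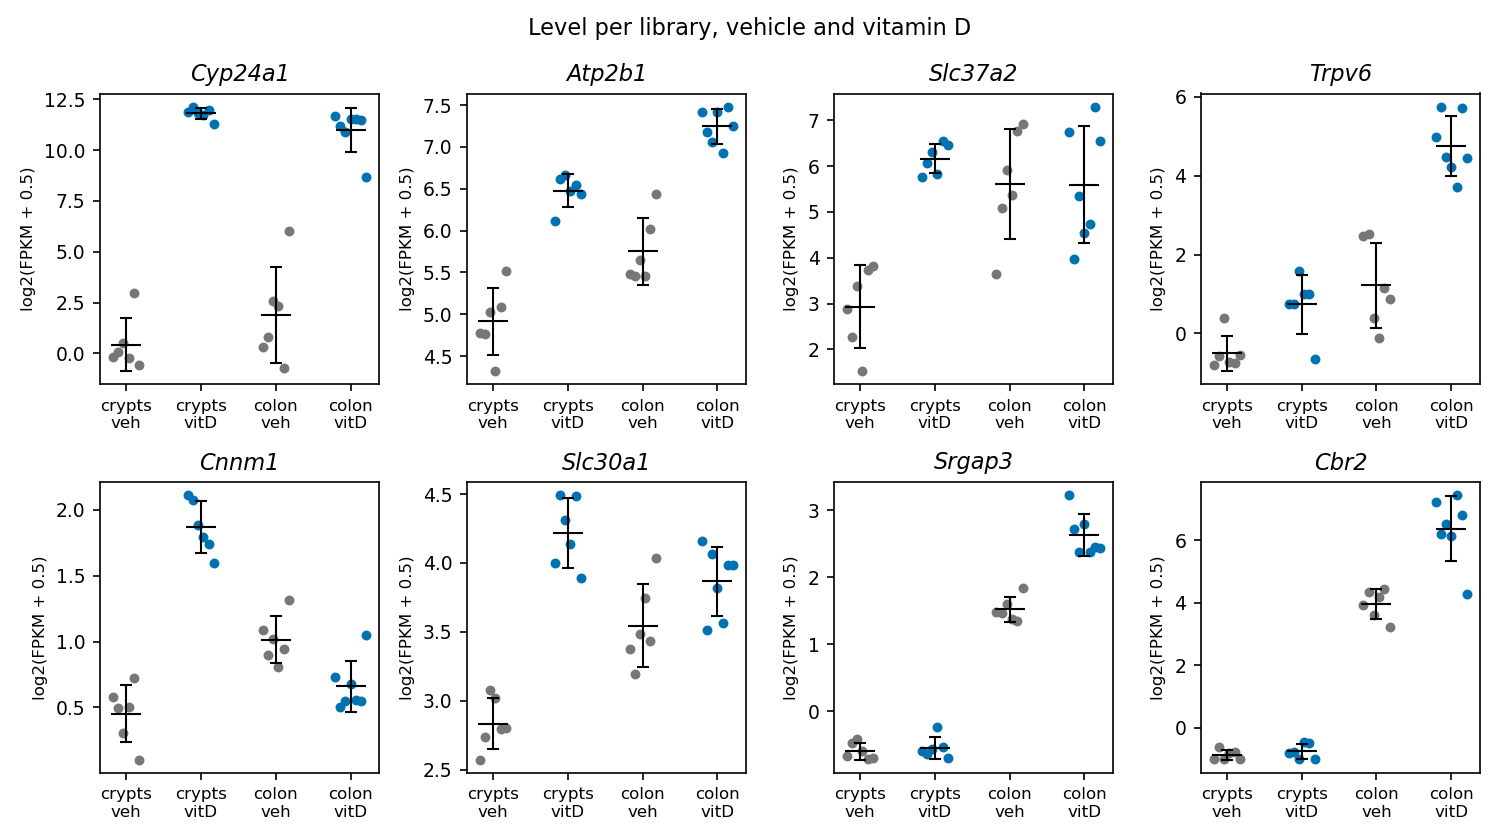
Level of 8 genes in each library on log2(FPKM + 0.5), by tissue and treatment, with the mean and SD of each group as bars. Cyp24a1 and Atp2b1 rise in both tissues, Cnnm1 and Slc30a1 in crypts, Srgap3 and Cbr2 in colon with crypts near the floor, and Slc37a2 spreads widely in both colon groups.

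Across the gene lists the responses were described by counts and medians, beside 11895 genes with a median difference of -0.01, of which 1.13% rose in crypts, 0.763% rose in colon and 0.0841% were called for the difference. In calcium absorption, 6 of 10 genes were tested, 3 rose in crypts and 2 in colon, none was called for the difference, and the median difference was 0.07. In metal handling 19 genes were tested, 3 rose in crypts and 2 in colon, and Slc30a1 was called for the difference. Among 29 glutathione and xenobiotic genes 2 rose in crypts, 1 rose and 1 fell in colon, and the median difference was -0.05. Gstp1 rose in both, from 836 to 1380 FPKM in crypts and from 790 to 1210 in colon, though its colon call was kept in 12 of 28 alternatives. Gstm3, another glutathione transferase gene, rose in crypts by 2.35 ± 0.52 and stood at 0.29 ± 0.45 in colon (difference 2.06 ± 0.72, adjusted p = 0.733). Among 10 retinoid genes 2 fell in crypts and none in colon, and all 10 differences were under 0 (median -0.38). Among 17 stem cell and Wnt target genes 1 rose and 1 fell in crypts. The riser was Msi1, an RNA-binding protein gene of progenitor cells, with 1.04 ± 0.19 in crypts and 0.58 ± 0.21 in colon (colon adjusted p = 0.39). No member of the cell cycle, tight junction, interferon or clock lists was called in either tissue. For lists of 24, 13, 10 and 13 tested genes that is near the share of all genes. The tight junction list did not hold Cldn2, which was called in crypts.

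Marker lists moved with the groups in places. All 8 tested stromal, muscle and endothelial genes had a difference under 0, with a median response of 0.00 in crypts and 1.08 in colon and none called. The 10 Paneth cell genes all had a difference above 0 (median 0.68), with medians of 0.27 in crypts and -0.43 in colon and none called. The 20 enterocyte genes had a median response of -0.51 in crypts and -0.21 in colon, 14 differences under 0 and none called. The part of these markers in the differences above was not tested beyond the counts without the libraries named.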

How the data were processed

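RNA-seq libraries of mouse crypts and colon were compared, grouped by their titles. The authors deposited FPKM, fragments per kilobase and per library size, in 1 table per tissue, per the file headers. They also deposited their own comparisons, per the file headers: log2 fold changes with standard errors, p-values and adjusted p-values, and scores (a mean level and a test statistic); these served only as an alternative. The submitters' processing notes list kallisto 0.45.0, DESeq 1.28.1, DESeq2 and the build mm9, without roles; the aligner and annotation are not given in these sources. Each response was taken inside its own table, since the tables may have been normalised separately.

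Depth was read from the steps of low FPKM values, of which 78.7% to 91.5% under 30 reads lay within 0.05 of a whole number; no count model was run. Among 66 pairs of libraries of a group, the chi-square per degree of freedom was at least 23.1, so none looked like a library deposited 2 times.

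In R 4.3.3, limma 3.58.1 (lmFit, eBayes with trend) was fitted to log2(FPKM + 0.5), over 25 libraries for the difference and over each tissue's libraries for its response, with Benjamini-Hochberg adjustment over all genes tested. The pseudocount of 0.5 shrinks changes of low genes. Errors of responses and differences are SE, those of FPKM are SD. The fit was tested on simulated data.

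Same-numbered vehicle and vitamin D libraries deviated together in crypts (r from 0.12 to 0.55 over 6 pairs, the pairing coming from the title numbers). In colon r ran from 0.06 to 0.57, and between crypts and colon from -0.11 to 0.31, which did not meet the rule of every pair above 0.1. By the sex-linked genes, 5 of 6 libraries in each crypt group had the female pattern, and 3 of 6 and 4 of 7 in the vehicle and vitamin D colon groups.

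The comparison, members, lists and tests were chosen with earlier results of these data known. Named genes are 9 vitamin D genes whatever their test, called differences (12 of smallest p per direction, or 6 where fewer passed), 6 genes called in each tissue and flat in the other, 8 called in both, 4 called differences absent in a tissue and 2 called members per list, most with a mean of 2 FPKM and an ordinary symbol. Genes outside this rule are marked as picked once their values were known, and 5031439G07Rik, Mapre2, Soat1, Gstp1, Gstm3 and Msi1 are also of that kind. Of 423 listed genes, 409 matched by symbol, 5 by another symbol, and 9 were not analysed here.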

Additional observations from a re-analysis of the deposited data

Results flagged for a closer look

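The 10 differences of responses that passed limma's test were flagged as differences between tissues: Cnnm1 at 1.77, Rnf149 at 0.86, 5031439G07Rik at 0.73, A830010M20Rik at -1.33, Srgap3 at -1.05, Pgap1 at 1.38, Slc30a1 at 1.06, Pip5k1b at 0.57, Cnksr3 at -0.81 and Wfdc16 at 1.96.

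A library far from the rest of its group on the log2 scale was looked for in 144 groups of 36 genes, and 11 were flagged; chance alone flags about 1 in 20. Vitamin D colon replicate 7 stood apart in 4 genes: Cyp24a1 at 403 FPKM (the others 1880 to 3270), Cnnm1 at 1.57 (0.914 to 1.16), Cbr2 at 18.9 (69.8 to 174) and Gdpd5 at 2.91 (8.61 to 15.8). In each it lay on the side of the vehicle libraries. In vehicle colon, replicate 1 had Vdr at 118 (172 to 208), and replicate 6 had Trim47 at 0 (0.567 to 1.04) and Ttc39b at 19.2 (10.6 to 13.1). In crypts, vehicle replicate 5 had Cyp24a1 at 7.35 (0.184 to 0.912) and vehicle replicate 3 had Trpv6 at 0.809 (0.0702 to 0.182). Vitamin D replicate 4 had Srgap3 at 0.351 (0.115 to 0.191), and replicate 1 had 5031439G07Rik at 15.7 (19.1 to 19.7).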

How the results depend on the processing

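The 10 called differences became 25 with the authors' deposited fold changes, 47 with limma arrayWeights, 17 with name style as a covariate and 19 in 1 fit over all 38 libraries. They became 4 in replicates 1 to 4 alone, 17 with sex pattern as a covariate and 2 without vehicle crypt replicates 5 and 6. The replicate block gave 28 by title number within tissue, 10 by column number within tissue and 13 by title number within treatment. Leaving out 1 library gave 1 to 18. Crypt calls (157) became 550, 1253, 391, 84 and 272 with the authors' values, arrayWeights, name style, replicates 1 to 4 and sex, 444 with the replicate block by title or column number, and 103 without vehicle crypt replicates 5 and 6; leaving out 1 library gave 107 to 1065. Colon calls (95) became 246, 176 and 147 with the authors' values, arrayWeights and the replicate block by title number. They were 58 without vitamin D colon replicates 1 and 2. Leaving out 1 library gave 66 to 141 colon calls, the most without vitamin D colon replicate 7. The causes were not tested. List members called for the difference (1) were 0 in replicates 1 to 4 and 2 with the block.

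With flat set at 1.5-fold, 26 genes rose in crypts and were flat in colon, 53 rose in crypts and were unsettled in colon, 9 fell in crypts and were flat in colon, 9 rose in colon and were flat in crypts, and 32 rose in colon and were unsettled in crypts. In replicates 1 to 4, 33 rose and 2 fell in crypts and were flat in colon, and 17 rose in colon and were flat in crypts. With the replicate block 151 rose and 143 fell in crypts and were flat in colon, 54 rose in both, and 7 rose in colon and were unsettled in crypts. Without vehicle crypt replicates 5 and 6, 36 rose and 9 fell in crypts and were flat in colon. Without vitamin D colon replicates 1 and 2, 15, 8 and 7 rose in colon and were flat, unsettled, and low or absent in crypts. Without vehicle colon replicates 5 and 6, highest in enterocyte markers there, 9 rose in colon and were low or absent in crypts.

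Values near 0 that were not called changed sign. The Slc37a2 colon response (-0.02) was 0.08 with the authors' values, 0.2 with arrayWeights, 0.13 with name style or the column block, 0.15 in replicates 1 to 4, 0.07 with sex, 0.6 without vehicle colon replicates 5 and 6, 0.08 without vitamin D colon replicates 1 and 2, and -0.41 to 0.26 leaving out 1 library. The Trim47 difference was -0.2 in replicates 1 to 4, -0.13 with a pseudocount of 1, -0.24 with the replicate block within tissue or treatment, -0.01 without vehicle crypt replicates 5 and 6, and -0.24 to 0.28 leaving out 1 library. The Chmp1b difference was 0.01 in replicates 1 to 4 and with quantile normalisation, 0.15 without vehicle crypt replicates 5 and 6, and -0.17 to 0.09 leaving out 1 library. The Atp2b1 difference was -0.01 in replicates 1 to 4, -0.18 without vehicle colon replicates 5 and 6, and -0.07 to 0.18 leaving out 1 library. The Pkp1 colon response was -0.01 with name style or the column block and -0.01 to 0.18 leaving out 1 library, the Ttc39b difference -0.29 to 0.06, the Dcxr crypt response 0.14 without vehicle crypt replicates 5 and 6, and the Rhov difference 0.03 with the authors' values. Of the values for single genes under an alternative, 5276 kept their direction and side of the threshold, 300 lost and 129 gained a call, and 43 changed sign. The alternatives that leave out 2 libraries were chosen after seeing the data. The median standard error of a difference was 0.215; its relation to depth was not tested.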

Other observations

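Further gene lists are given by counts and medians, beside 1.13% of all genes rising in crypts and 0.763% in colon. Among 16 cholesterol synthesis genes 14 had a difference above 0 (median 0.21), with medians of 0.01 in crypts and -0.34 in colon, and 1 rose in colon. Among 16 genes of fatty acid oxidation and PPAR targets 2 rose in crypts and 1 in colon, with a median difference of -0.36. All 10 interferon-stimulated genes had a difference under 0 (median -0.32) and none was called. The 6 genes of MHC class II antigen presentation had medians of 0.62 in crypts and 0.37 in colon, and the 14 glucocorticoid receptor and target genes -0.57 and -0.49, with none called in either list. The median of all genes tested was -0.01 in crypts and 0 in colon.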
